A study of Mus musculus with 3 samples.

Results

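Narrow H3K4me3 regions that carried no H3K27me3 made up 2483 of the 21098 H3K4me3 regions called on the autosomes of adult mouse neural stem cell cultures, or 11.8% (95% Wilson interval 11.3 to 12.2%). The whole deposited H3K4me3 list held 21998 regions. The narrow H3K4me3-only regions were selected on 2 measured values: a width under 1000 bp, and 0 bp shared with any region of the H3K27me3 list. Neither value is therefore a result here, and differences that follow from them are given as descriptions without a test. Histone marks had been profiled by chromatin immunoprecipitation and sequencing (ChIP-seq) in neurospheres, which are free-floating spheres grown from stem cells, here of cells from the subventricular zone. The donors were male C57BL/6 mice of wild-type genotype. There was 1 library for H3K4me3, 1 for H3K27me3 and 1 of input DNA without antibody, and the input was not analysed here. The age of the mice and the number of animals behind a culture were not given in the sources used here, and nothing in region lists shows how many of the cultured cells were stem cells or their progeny. No value below carries an error between cultures. The intervals cover counting error over regions only, and regions that lie close together are not independent.

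Trimethylation of histone H3 at lysine 4 is laid down by the SET1 and MLL complexes and is concentrated on the nucleosomes that flank the start sites of active genes, above all at CpG islands. Its domains are wide at strongly transcribed and cell identity genes. Small patches are known from the shoulders of large promoters, from weak or unannotated start sites, including those of long noncoding RNAs, and from some enhancers. Trimethylation at lysine 27 is the product of Polycomb repressive complex 2, and places with both marks are often called bivalent. The study asked about the chromatin state of long noncoding RNA promoters. Gene positions on the build of these files, mm9, were not used here, so regions are named by position and no gene is assigned to them.

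The narrow H3K4me3-only regions were weak as well as small. Their median width was 800 bp (interquartile range 685 to 901 bp, full range 243 to 999 bp), and 119 of them (4.79%) were under 500 bp. The score the authors deposited for each region, which has no stated scale and which starts at 50.01 in this list and piles up at 3100, had a median of 89.56 (interquartile range 64.3 to 155.56). A score of 100 or less was held by 1402 of them (56.5%), against 11.1% of all autosomal H3K4me3 regions. A score of 500 or more was held by 114 (4.59%). Only 3 reached 3100, on chromosome 10 (126816864 to 126817858, 995 bp), chromosome 19 (12592263 to 12593156, 894 bp) and chromosome 5 (108430063 to 108430701, 639 bp). These 3 lay 9.02, 0.503 and 8.30 kb from the nearest H3K27me3 region. Narrow regions that did overlap H3K27me3 numbered 1232 and had a median width of 836 bp and a median score of 101. Of these, 2 (0.162%) reached 3100, against 0.121% of the narrow H3K4me3-only regions, so rarity at that score was shared. Among H3K4me3-only regions, 3100 was reached by 25.5% at 1000 to under 2000 bp and by 96.5% at 2000 bp or more. At 1000 to under 2000 bp the median score of H3K4me3-only regions was 596.

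Width and score were only loosely related among the narrow H3K4me3-only regions. Spearman's rho over the 2483 regions was 0.21, and over the 1232 narrow regions with H3K27me3 it was 0.12. Over the 3682 H3K4me3-only regions of 1000 to under 2000 bp, a class cut to another range of width, it was 0.72. The loose relation was thus shared by narrow regions with H3K27me3. All points come from 1 library, and the caller sets both quantities. The median score was 72.81 for widths of 600 to under 700 bp and 113 for widths of 900 to under 1000 bp. It was 89.99 in the 119 regions under 500 bp, so the smallest regions were not the lowest in score. The narrowest of all, 243 bp on chromosome 14 (123850841 to 123851083), had a score of 245 and is named after its values were seen. The share of narrow regions without H3K27me3 fell from 75.1% (69.3 to 80.1%) at 500 to under 600 bp to 61.0% (58.0 to 64.0%) at 900 to under 1000 bp. It was 67.2% (60.01 to 73.7%) under 500 bp. This share is part of the rule that chose the regions.

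Scores did not jump at the upper limit of width. H3K4me3-only regions of 950 to under 1000 bp numbered 303 with a median score of 122, and those of 1000 to under 1050 bp numbered 326 with a median score of 132. The share within 5 kb of a wide region was 17.4% at 900 to under 950 bp, 19.5% at 950 to under 1000 bp, 12.3% at 1000 to under 1050 bp and 16.2% at 1050 to under 1100 bp. The 5 regions just inside the limit were all 999 bp wide and had scores of 171, 306, 306, 589 and 733. The 5 just outside it were all 1000 bp wide and had scores of 122, 140, 158, 210 and 772, so the scores of both sets overlapped. At the other limit, 40 narrow H3K4me3-only regions lay within 100 bp of an H3K27me3 region and had a median score of 73.2. The 44 narrow regions that shared 1 to 100 bp with one had a median score of 93.3.

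The first question was whether these regions were satellites of wide H3K4me3 regions or stood apart. Wide H3K4me3 regions were taken as those of 2000 bp or more, of which there were 10527 on the autosomes. A narrow region with its nearest wide region within 5 kb was called a satellite, one over 50 kb away was called isolated, and the rest were called intermediate. Satellites numbered 448 (18.04%, 16.6 to 19.6%), intermediate regions 800 (32.2%, 30.4 to 34.1%) and isolated regions 1235 (49.7%, 47.8 to 51.7%). Among all 10571 autosomal H3K4me3 regions under 2000 bp, 13.7% lay within 5 kb of a wide region and 46.8% lay over 50 kb away. The median distance of the narrow H3K4me3-only regions to a wide region was 49.6 kb, with an interquartile range of 12.1 to 140 kb.

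**Figure D1:**
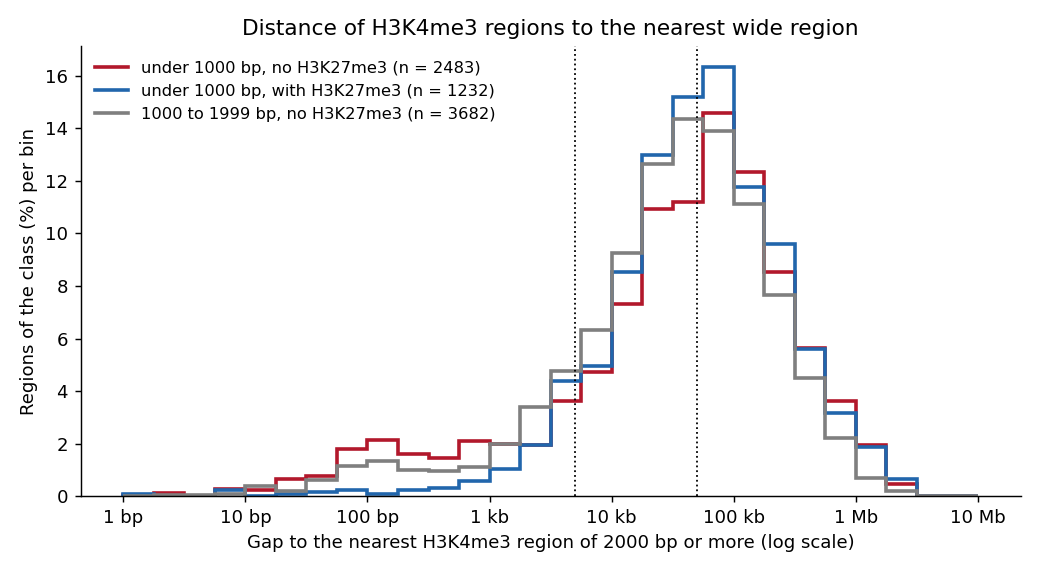
Gap from each autosomal H3K4me3 region to the nearest H3K4me3 region of 2000 bp or more (x axis, log scale, 4 bins per factor of 10) as a percentage of its class (y axis), for narrow regions without H3K27me3, narrow regions with it, and regions of 1000 to under 2000 bp without it. Dotted lines mark 5 and 50 kb. Narrow regions without H3K27me3 show a shoulder below 1 kb beside the main peak near 100 kb, and narrow regions with H3K27me3 have almost no such shoulder.

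Satellites were concentrated directly beside the wide region. Of the 448 satellites, 221 (49.3%, 44.7 to 53.9%) lay within 500 bp, at a median gap of 121 bp. Counted per 100 bp of gap, there were 97 regions at under 100 bp, 58 at 100 to 200 bp, 11.4 on average from 500 to 1000 bp and 3.7 from 2 to 5 kb. It went on falling, to 2.68 from 5 to 10 kb, 2.33 from 10 to 20 kb, 1.44 from 20 to 50 kb and 0.854 from 50 to 100 kb. The smallest gap was 1 bp. H3K4me3-only regions of 1000 to under 2000 bp had a like pattern, with 95 at under 100 bp, 58 at 100 to 200 bp and 10 per 100 bp from 500 to 1000 bp. Among narrow regions with H3K27me3 only 10 lay under 100 bp and 1 at 100 to 200 bp. How a caller divides a single enriched stretch into regions was not tested, and a gap of a few bp cannot be told apart from such a division.

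**Figure D2:**
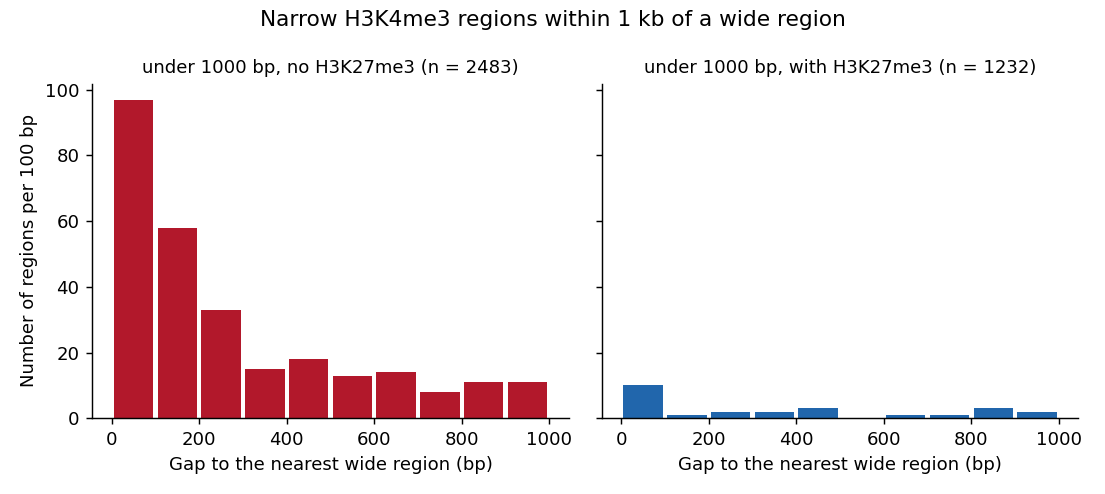
Number of narrow H3K4me3 regions (y axis) per 100 bp of gap to the nearest wide region (x axis, bp, up to 1 kb), without H3K27me3 on the left and with it on the right. Counts without H3K27me3 fall from 97 in the first 100 bp to 11 in the last, and those with H3K27me3 stay at 10 or less.

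Narrow H3K4me3-only regions were close satellites more often than narrow regions with H3K27me3. Within 500 bp of a wide region lay 8.90% (7.84 to 10.1%) of narrow H3K4me3-only regions, 1.46% (0.926 to 2.30%) of narrow regions with H3K27me3 and 5.62% (4.92 to 6.41%) of H3K4me3-only regions of 1000 to under 2000 bp. The share was higher than in narrow regions with H3K27me3 on 18 of the 19 autosomes, and higher than in the 1000 to under 2000 bp class on 17. From 500 bp to 5 kb the shares were 9.14%, 6.66% and 10.05%, and the first was above the second on 14 of the 19 autosomes. Over 50 kb the shares were 49.7%, 51.4% and 43.1%. Between 5 and 50 kb narrow regions with H3K27me3 had larger shares than narrow H3K4me3-only regions. At 5 to 10, 10 to 20 and 20 to 50 kb theirs were 6.25%, 10.6% and 23.6%. Those of narrow H3K4me3-only regions were 5.40%, 9.42% and 17.4%. H3K4me3-only regions of 1000 to under 2000 bp had 7.77%, 11.7% and 21.8%. Regions of 1000 to under 2000 bp with H3K27me3 lay within 500 bp in 1.76% (1.36 to 2.28%) of cases, against the 5.62% without it. The contrast within 500 bp was therefore not particular to narrow regions. The classes were cut from the lists that are described, so no test was made of these differences. H3K27me3 covered 1.42% of the base pairs within 1 kb of wide regions that had none themselves, against 6.15% over the autosomes. The part of this in the difference within 500 bp was not tested.

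The 448 satellites belonged to 432 wide regions, which were 4.10% (3.74 to 4.50%) of all wide regions on the autosomes. A single satellite was found beside 416 of them, a pair beside 16, and 3 or more beside none. Both members of a pair lay on the same side of the wide region in all cases but 1, on chromosome 11 (50189558 to 50193919, 4362 bp), named because it was the exception. Its satellites had widths of 731 and 561 bp, gaps of 4170 and 785 bp, and scores of 65.1 and 54.3. Satellites showed no side in coordinate order, with 229 of 448 (51.1%, 46.5 to 55.7%) after the wide region. The direction of transcription was not used. For 407 of the 448 (90.8%) the wide region was also the nearest H3K4me3 region of any width.

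Wider regions had satellites more often. A satellite was found beside 2.37% (1.89 to 2.95%) of wide regions of 2000 to under 2500 bp, 3.90% (3.24 to 4.68%) at 2500 to under 3000 bp, 4.73% (4.02 to 5.55%) at 3000 to under 4000 bp, 5.73% (4.45 to 7.35%) at 4000 to under 5000 bp and 8.66% (6.65 to 11.2%) at 5000 bp or more. Median width was 3162 bp where a satellite was present and 2842 bp where none was. With a satellite within 500 bp added on, the joined stretch had a median length of 4088 bp, and the satellite's width was a median of 24.0% of that of its wide region. Wide regions without H3K27me3 had a satellite in 4.67% (4.22 to 5.16%) of 7820 cases, and those with H3K27me3 in 2.48% (1.95 to 3.13%) of 2707. The rule removes narrow regions that touch H3K27me3, so the lower share beside wide regions with the mark follows in part from the rule.

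The wide regions with 2 satellites that ranked first by the smaller gap show what such a place looks like. On chromosome 3 a wide region of 2901 bp (108712882 to 108715782, score 3100) had a satellite of 961 bp and score 1069 only 6 bp before it, and another of 821 bp and score 185 at 1080 bp. On chromosome 2 a wide region of 4045 bp (130274832 to 130278876, score 3100) was followed after 15 bp by a satellite of 938 bp and score 196, and at 1517 bp by one of 879 bp and score 68.5. In both places the H3K4me3 scores fell with distance from the wide region. On chromosome 13 (21840858 to 21843041) the order was the opposite, with a score of 143 at 131 bp and 282 at 1098 bp. The other two of the 5 places, on chromosome 4 (122636701 to 122639284) and chromosome 3 (106838003 to 106843009), had wide regions that overlapped H3K27me3 over 2421 and 1803 bp. Their satellites had scores of 57.5 at 117 bp and 53.4 at 3697 bp, and 78.2 at 131 bp and 110 at 1221 bp, so these pairs had no common order either.

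Satellites had the lowest scores of the 3 sets. The median score was 80.2 (interquartile range 59.7 to 130) in satellites, 89.2 (64.6 to 144) in intermediate regions and 92.0 (66.1 to 171) in isolated ones. Within 500 bp of a wide region the median was 83.7, at 500 to 1000 bp it was 66.7, and at 2 to 5 kb it was 80.3. Isolated regions had the higher median on 17 of the 19 autosomes when set against satellites. A score of 200 or more was held by 12.9% (10.2 to 16.4%) of satellites, 16.25% (13.9 to 18.97%) of intermediate and 20.1% (17.9 to 22.4%) of isolated regions, so the ranges of the 3 sets overlapped widely. Median widths were 785.5, 818 and 793 bp. Ranked by score in 4 sets of nearly equal size, the lowest set (50.01 to 64.29) had 22.9% satellites and 45.4% isolated regions, and the highest (155.6 and above) had 14.0% and 57.2%. The sets between had 17.4% and 17.9% satellites and 49.6% and 46.8% isolated regions, so neither share moved steadily with score.

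The satellites with the highest scores were of several kinds. The first, on chromosome 4 (88932548 to 88933095, 548 bp), had a score of 2061 and lay 3.53 kb from its wide region and 1615 bp from H3K27me3. The next, on chromosome 8 (105304458 to 105305219, 762 bp), had a score of 1673, a gap of 2.02 kb and H3K27me3 at 1.52 kb. The other 3 were shoulders in the plain sense of distance, with gaps of 48 bp on chromosome 2 (6793781 to 6794730, score 1444), 238 bp on chromosome 1 (186823747 to 186824670, score 1092) and 6 bp on chromosome 17 (27085094 to 27085919, score 1079).

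Isolated regions lay at a median of 141 kb from a wide region (interquartile range 84.3 to 293 kb), and 166 regions (6.69% of all narrow H3K4me3-only regions) were over 500 kb away. Narrow regions with H3K27me3 had nearly the same share, 6.49% (5.25 to 8.01%). The H3K4me3-only share was above theirs on 10 autosomes and below it on 9. At 1000 to under 2000 bp it was 3.88% without H3K27me3 and 3.06% with it. At 2000 bp or more it was 2.31% and 5.25%. Isolated here refers to wide regions only. The nearest H3K4me3 region of any width lay at a median of 63.5 kb from them. In 21.5% of isolated regions it was another narrow H3K4me3-only region and in 27.3% an H3K4me3-only region of 1000 to under 2000 bp. Wide regions are barred from the first 50 kb around an isolated region by its definition, so these shares are not set against the makeup of the list. Over 100 kb from every other H3K4me3 region lay 433 of the 2483 narrow H3K4me3-only regions (17.4%, 16.0 to 18.98%), against 11.0% (10.1 to 12.1%) of H3K4me3-only regions of 1000 to under 2000 bp and 8.09% (7.51 to 8.72%) of those of 2000 bp or more. The share in the narrow class was higher on 19 of 19 autosomes in both comparisons. Narrow regions with H3K27me3 came closer, at 14.7% (12.8 to 16.8%), and the H3K4me3-only share was above theirs on 12 of 19 autosomes. Wider regions with H3K27me3 had 12.3% (11.2 to 13.5%) at 1000 to under 2000 bp and 15.3% (14.0 to 16.7%) at 2000 bp or more. The share of narrow H3K4me3-only regions was above each of these on 15 of 19 autosomes.

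The isolated regions with the highest scores were found in unlike surroundings. On chromosome 10 the region at score 3100 named above lay 67.1 kb from a wide region but only 211 bp from another H3K4me3 region of under 2000 bp. On chromosome 4 (112651713 to 112652520, 808 bp) a region with a score of 2459 stood 1092 kb from any other H3K4me3 region and 226 kb from any H3K27me3 region. On chromosome 9 (53677017 to 53677999, 983 bp, score 1946) H3K27me3 lay 105 bp away. The regions on chromosome 7 (79817504 to 79818255, score 1829) and chromosome 3 (83090709 to 83091564, score 1736) lay 18.04 and 4.96 kb from H3K27me3 and 701 and 157 kb from a wide region.

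The narrow H3K4me3-only regions farthest from any wide region stood in long stretches without one. They lay at 2835 kb on chromosome 15 (21586063 to 21586592, 530 bp, score 93.9), 2778 kb on chromosome 1 (116540583 to 116541058, 476 bp, score 84.2), 2508 kb on chromosome 5 (60622617 to 60622937, 321 bp, score 456), 2476 kb on chromosome 2 (87366044 to 87366548, 505 bp, score 973) and 2327 kb on chromosome 10 (47173738 to 47174647, 910 bp, score 124). The nearest H3K4me3 region of any width was 2507 kb away on chromosome 5, 2327 kb on chromosome 2 and 1578 kb on chromosome 10, but 545 kb on chromosome 15 and 478 kb on chromosome 1. The region on chromosome 10 lay 568 bp from H3K27me3, and the one on chromosome 15 lay 212 kb from it. The 166 regions over 500 kb from a wide region had a median score of 107 and a median width of 754.5 bp.

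The second question was how near H3K27me3 came. The median distance from a narrow H3K4me3-only region to the nearest H3K27me3 region was 13.6 kb (interquartile range 3.22 to 41.0 kb). Within 10 kb lay 1099 of them (44.3%, 42.3 to 46.2%), close to the 42.7% of all 13985 autosomal H3K4me3 regions without H3K27me3. Within 1 kb lay 315 (12.7%, 11.4 to 14.1%), and 203 (8.18%, 7.16 to 9.32%) had none within 100 kb. The share within 1 kb was 12.1% (11.1 to 13.2%) in H3K4me3-only regions of 1000 to under 2000 bp and 5.86% (5.36 to 6.40%) in those of 2000 bp or more. It was higher in the narrow class than in the widest on 19 of 19 autosomes, and higher than in the 1000 to under 2000 bp class on 8 of 19. The share with none within 100 kb was 6.36% (5.61 to 7.19%) at 1000 to under 2000 bp and 4.63% (4.19 to 5.12%) at 2000 bp or more. For this share the narrow class was above the first on 11 of 19 autosomes and above the second on 15.

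H3K27me3 was found within 10 kb on both sides of 368 narrow H3K4me3-only regions (14.8%), on one side of 731 (29.4%) and on no side of 1384 (55.7%). Over all 13985 autosomal H3K4me3 regions without H3K27me3 the shares were 9.82%, 32.9% and 57.3%. A set of 76 (3.06%, 2.45 to 3.81%) sat in a gap inside an H3K27me3 domain, defined by joining H3K27me3 regions over gaps of up to 3 kb, and 35 (1.41%) in a domain of 10 kb or more. Over all autosomal H3K4me3 regions without H3K27me3, 1.03% sat in such a gap, which a region of over 3 kb cannot do by construction. These 76 narrow regions had a median score of 72.6, below the 89.56 of all. The nearest H3K27me3 regions were themselves small, with a median width of 771 bp and 24.4% of 1000 bp or more. Over all autosomal H3K27me3 regions the values were 879 bp and 39.5%. Whether this differs from the nearest H3K27me3 region of an arbitrary position was not tested.

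Distance to H3K27me3 differed among satellites, intermediate and isolated regions. H3K27me3 lay within 10 kb of 40.6% (36.2 to 45.2%) of satellites, 50.4% (46.9 to 53.8%) of intermediate and 41.6% (38.9 to 44.4%) of isolated regions. Satellites within 500 bp of a wide region had it within 10 kb in 29.9% of cases, at a median distance of 24.3 kb. The 111 at 2 to 5 kb had it within 10 kb in 61.3%, at a median of 7.18 kb. In H3K4me3-only regions of 1000 to under 2000 bp the shares at these distances were 42.5% and 48.2%, a smaller contrast. Of all 448 satellites, 88 (19.6%, 16.2 to 23.6%) had H3K27me3 within 10 kb on the outer side. On the side of the wide region 132 (29.5%, 25.4 to 33.8%) had it, of which 32 (7.14% of satellites) had it between satellite and wide region. The wide region itself overlapped H3K27me3 for 70 satellites, and the part of this in the difference between sides was not tested. Of isolated regions, 150 (12.1%, 10.4 to 14.1%) had no H3K27me3 within 100 kb, against 22 satellites (4.91%, 3.27 to 7.32%) and 31 intermediate regions (3.875%, 2.74 to 5.45%).

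The share of base pairs in H3K27me3 regions around the narrow H3K4me3-only regions was low next to them and close to the autosomal mean of 6.15% farther out. Around satellites it rose from 1.71% in the first 1 kb through 5.29% between 1 and 5 kb to 8.57% between 50 and 100 kb. Around isolated regions the same 3 bins held 4.21%, 5.08% and 4.72%. The 166 regions over 500 kb from a wide region had little H3K27me3 around them, with 1.96% within 1 kb and 0.943% at 50 to 100 kb. Around H3K4me3-only regions of 2000 bp or more the share rose from 1.42% within 1 kb to 10.5% at 50 to 100 kb. Low values within 1 kb follow in part from the rule, since a region that H3K27me3 enters over an end is not a member.

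**Figure D3:**
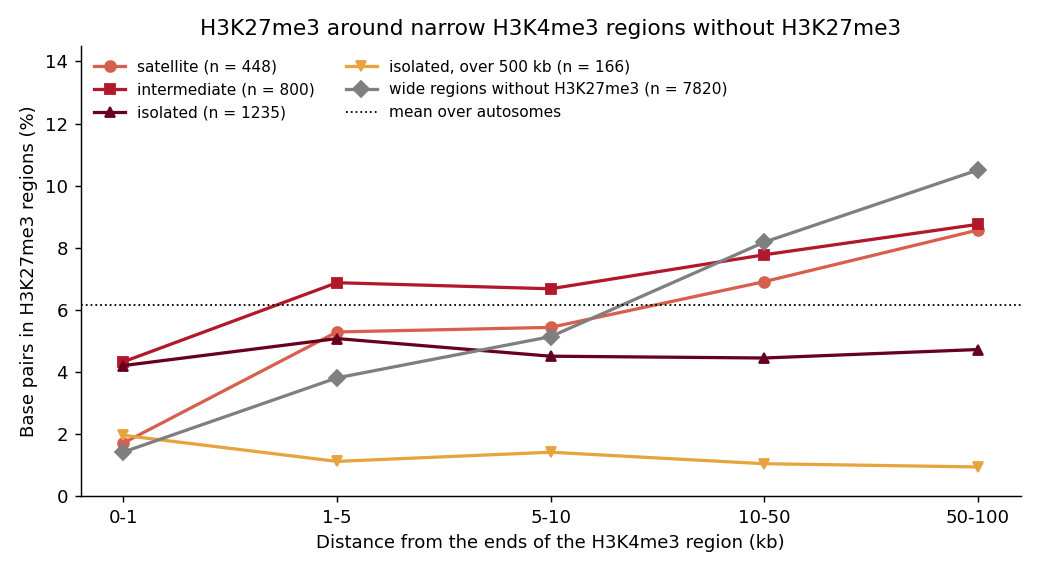
Share of base pairs in H3K27me3 regions (y axis, %) in 5 distance bins from the ends of the H3K4me3 region (x axis, kb), for satellite, intermediate and isolated narrow regions, for the 166 isolated ones over 500 kb from a wide region, and for wide regions without H3K27me3. Isolated regions stay below the autosomal mean of 6.15% in all 5 bins, and those over 500 kb from a wide region stay at 1.96% or less.

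Regions far from both marks had a higher median score than the class as a whole. The 86 narrow H3K4me3-only regions (3.46%) over 100 kb from any other H3K4me3 region and any H3K27me3 region had a median score of 116 (interquartile range 72.6 to 241), and 28 of them (32.6%, 23.6 to 43.0%) had a score of 200 or more. Among all 2483 this share was 17.6%. They were found on 18 of the 19 autosomes. The highest, the chromosome 4 region at 2459, was named above. The next, chosen after their values were seen, were on chromosome 8 (102554226 to 102554951, 726 bp, score 796) and chromosome 10 (71771526 to 71772509, 984 bp, score 691).

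The third question was whether narrow H3K4me3-only regions lie in groups. Most stood singly. The gap between neighbours had a median of 534 kb (interquartile range 185 to 1301 kb), and 27 of the 2464 gaps were 1 kb or less. Another narrow H3K4me3-only region lay within 10 kb of 145 (5.84%, 4.98 to 6.83%). Another H3K4me3 region of any width lay within 10 kb of 36.0%, against 34.7% of all 21098 autosomal regions. For regions of 1000 to under 2000 bp without H3K27me3 the share with another of their own class within 10 kb was 12.0%, and for those of 2000 bp or more it was 16.6%. Those classes are denser, at 1.53 and 3.24 per Mb against 1.03, so their shares cannot be set against the 5.84%. Narrow regions with H3K27me3, at only 0.510 per Mb, had a share of 7.06% (5.76 to 8.63%). Regions of 2000 bp or more with H3K27me3, at 1.12 per Mb, had 6.87% (5.98 to 7.89%). Close neighbours of the same class were therefore no trait particular to narrow H3K4me3-only regions.

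The 145 regions formed 71 groups, namely 68 pairs and 3 groups of 3. Of these groups 64 held no other H3K4me3 region between their members, 9 held H3K27me3 and 25 consisted of isolated regions alone. The median length of a pair was 4559 bp. Satellites were in a group in 8.26% (6.05 to 11.2%) of cases, intermediate regions in 7.125% (5.54 to 9.12%) and isolated regions in 4.13% (3.15 to 5.39%). The 37 grouped satellites had a median score of 69.4 and single ones 81.7. For intermediate regions, 57 of them grouped, the values were 86 and 89.99. Only the 51 grouped isolated regions had the higher median, 97.7 against 91.8 in single ones. Over all narrow H3K4me3-only regions the values were 86.2 and 89.7. These differences were not tested.

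Each of the groups of 3 had a character of its own. On chromosome 13 (22019558 to 22029528) the regions had widths of 428, 947 and 754 bp and scores of 59.6, 187 and 94.6, all between 6541 and 9505 bp from a wide region. On chromosome 11 (16656507 to 16670457) they had widths of 730, 874 and 938 bp and scores of 60.2, 55.0 and 131, and lay 0.215, 9.52 and 13.2 kb from a wide region, with H3K27me3 at 204, 195 and 191 kb. On chromosome 6 (136480976 to 136500231) they had widths of 822, 812 and 923 bp and scores of 64.9, 97.7 and 50.6, 251 to 269.6 kb from a wide region and 101 to 119 kb from H3K27me3. The other groups named by the rule were close pairs beside a wide region, 1070 bp long on chromosome 18 (10179155 to 10180224) and 1104 bp long on chromosome 12 (66069720 to 66070823).

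When gaps of up to 50 kb were allowed, 415 narrow H3K4me3-only regions (16.7%, 15.3 to 18.2%) fell into groups, of which 3 held 4 regions and 1 held 6. The group of 6, named because it was the largest, spanned 113.5 kb on chromosome 18 (37560429 to 37673933). Its members had widths of 808, 994, 748, 973, 913 and 764 bp in coordinate order and scores of 61.55, 239.8, 107, 237, 161 and 162.5. All 6 were isolated, at 128 to 241 kb from a wide region. Each had H3K27me3 close by, at 660, 468, 849, 506, 486 and 754 bp. The stretch held 5 further H3K4me3 regions of 1356 to 1740 bp, 1 of which overlapped H3K27me3 over 94 bp, and 13 H3K27me3 regions of 857 to 1399 bp that covered 13.0% of it. The rule kept the 6 narrow regions clear of H3K27me3, so their lack of overlap is no finding. The 3 groups of 4, on chromosome 6 (136468457 to 136500231, which takes in the group of 3 above), chromosome 17 (81200739 to 81287564) and chromosome 4 (97456360 to 97512236), had median scores of 81.3, 61.8 and 114.

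The narrow H3K4me3-only regions were found on all 19 autosomes. There were 1.04 ± 0.142 of them per Mb (mean and SD of the 19 autosomes), with the lowest density on chromosome 15 (0.877) and the highest on chromosome 19 (1.39). For wide regions the mean was 4.44 ± 1.12, and chromosomes 1 (3.13) and 11 (7.37) were the extremes. As a share of the H3K4me3 regions of an autosome, the narrow H3K4me3-only class ran from 8.27% (7.013 to 9.72%) on chromosome 11 to 16.7% (14.6 to 18.98%) on chromosome 3. Median widths ran from 768 to 824.5 bp and median scores from 80.9 to 107 over the autosomes.

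The mix of satellites and isolated regions moved with the density of wide regions. Satellites made up 18.6% ± 4.36 of the narrow H3K4me3-only regions of an autosome (mean and SD of 19), with 12.6% on chromosome 12 as the lowest share and 27.3% on chromosome 15 as the highest. Isolated regions made up 49.2% ± 7.21, from 33.3% on chromosome 11 to 63.2% on chromosome 1, the autosomes with the most and the fewest wide regions per Mb. Over the 19 autosomes Spearman's rho between wide regions per Mb and the isolated share was -0.81, as a description. All autosomes come from the same libraries, and a denser set of wide regions shortens the distance to the nearest one by construction. The share with H3K27me3 within 10 kb ran from 26.1% on chromosome 12 to 59.1% on chromosome 15.

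**Figure D4:**
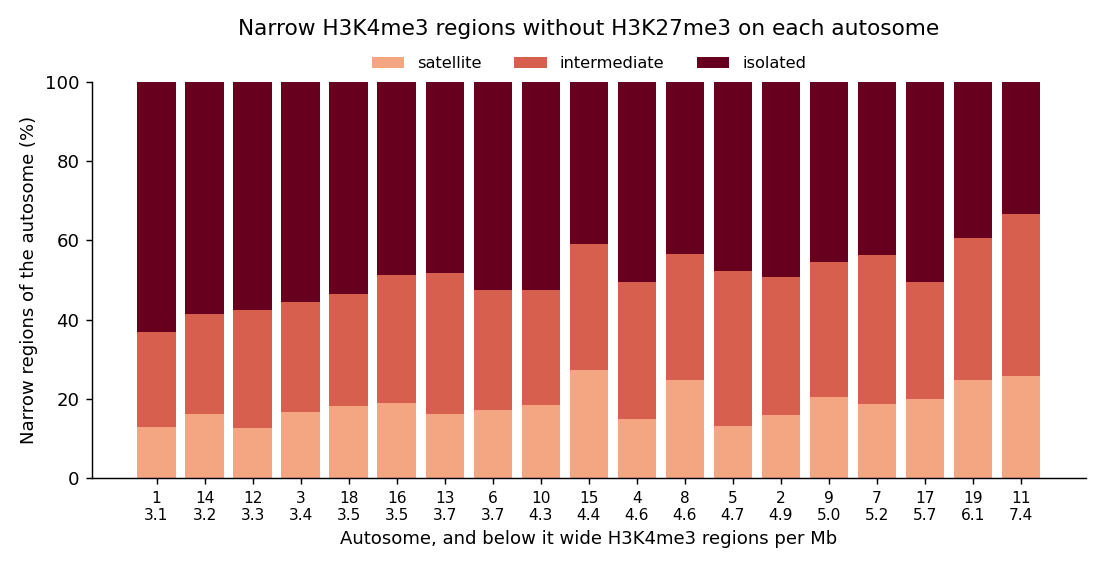
Percentage of the narrow H3K4me3-only regions of each autosome (y axis) that were satellite, intermediate or isolated, with autosomes ordered by wide H3K4me3 regions per Mb (x axis, lower line of the labels). The isolated share runs from 63.2% on chromosome 1, at the left, to 33.3% on chromosome 11, at the right.

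Windows of 1 Mb give a description at a finer scale. Satellite and isolated are defined by distance to a wide region, so their densities over these windows follow in part from the definition. The 472 windows without a wide region held 188 narrow H3K4me3-only regions, or 0.398 per Mb, and 140 of these windows (29.7%, 25.7 to 33.9%) held at least 1. Windows with 10 or more wide regions held 1.78 per Mb, of which 0.568 were satellites and 0.302 isolated. Isolated regions were densest in windows with 2 to 4 wide regions, at 0.638 per Mb. Per wide region the number of narrow H3K4me3-only regions fell from 0.708 in windows with 1 wide region to 0.117 in windows with 10 or more. Their number therefore rose with the number of wide regions, but less than in proportion. H3K27me3 regions per Mb rose over the same windows from 11.5 to 106.

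**Figure D5:**
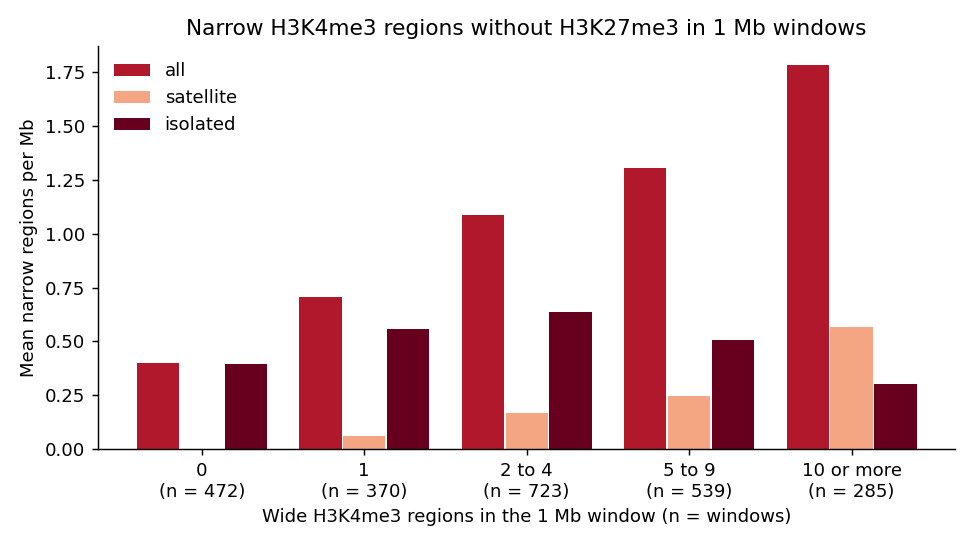
Mean number of narrow H3K4me3-only regions per Mb (y axis) in 1 Mb windows grouped by their number of wide H3K4me3 regions (x axis, with the number of windows), for all regions, satellites and isolated regions. All regions rise from 0.398 to 1.78 per Mb, satellites rise from 0 to 0.568, and isolated regions are highest at 0.638 in windows with 2 to 4 wide regions.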

How the data were processed

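The files the authors deposited hold, for each region of a mark, its position, a MACS peak name and a score of no stated unit. The submitters' processing notes name Bowtie 1.1.2 and build mm9. Caller version, threshold, control and sequencing depth were not given in the sources used here, so no detection limit can be stated. Scores were compared only within the H3K4me3 list. Positions are on mm9, counted from 1. The lists were used as deposited, on chromosomes 1 to 19.

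A gap is the number of bp between the ends of neighbouring regions. An overlap needed 1 bp. Shares carry 95% Wilson intervals. Densities used the length from the first to the last region of an autosome. No statistical test was made, since each mark has 1 library and the regions were chosen by values of these lists. The regions, thresholds and classes were chosen with earlier results of these data known. Named regions are the 5 highest-scoring satellites and isolated regions, the 5 farthest from a wide region, the 5 largest groups (shortest first among ties), the 5 wide regions with most satellites (smallest gap first), and 5 on each side of the width limit. The order among ties was set after the values were seen.

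The gene lists planned were not used, because the gene table and promoter sequences at hand are of another build, GRCm38.p6, and no sequence of these regions is printed. Tables were made in Python 3.11.15 with pandas 2.3.3 and NumPy 2.4.6, and figures with matplotlib 3.10.9. Distances and membership were checked against bedtools 2.31.1, with 0 differences over 2483 regions, and tested on simulated data.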

Additional observations from a re-analysis of the deposited data

Results flagged for a closer look

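The X chromosome and unplaced sequence were outside the rule. By the same limits of width and overlap, 103 of the 701 H3K4me3 regions of X (14.7%, 95% Wilson interval 12.3 to 17.5%) were narrow and free of H3K27me3. They are listed because no comparison above used them. They had a median width of 771 bp and a median score of 105. Of these, 14 (13.6%) were satellites, 64 (62.1%) were isolated, and 16 (15.5%) had H3K27me3 within 10 kb, against 18.04%, 49.7% and 44.3% on the autosomes. Differences between X and the autosomes were not tested. A further 36 of 191 regions on unplaced sequence met the limits, and 21 of these had H3K27me3 within 10 kb.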

How the results depend on the processing

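Of 60 alternatives, 15 moved a value by less than its interval and 45 by more. Nearly all of the latter change what is counted. The satellite share of 18.04% became 13.6% within 2 kb and 23.4% within 10 kb. With wide regions of 1500 bp or more it was 20.7%, and with 3000 bp or more 10.7%. The isolated share of 49.7% became 67.1% over 20 kb, 32.5% over 100 kb, 42.5% with wide regions of 1500 bp or more and 68.2% with 3000 bp or more. The median distance to a wide region, 49.6 kb, became 35.3 and 117 kb with those 2 widths. The upper and lower 50% of the narrow regions by score gave satellite shares of 15.9 and 20.1% and isolated shares of 51.9 and 47.5%. Their median distances to a wide region were 55.2 and 43.8 kb, and their grouped shares 3.06 and 3.38%. Here and below, the grouped share of a changed set was counted within that set alone. A thinner set therefore has fewer close neighbours by construction, and a denser set more.

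A width limit of 1500 bp gave an isolated share of 47.2%, a median distance to a wide region of 44.2 kb, H3K27me3 within 10 kb of 46.4% at a median of 12.1 kb, a grouped share of 11.9% and 21.9% of the autosomal list. A limit of 750 bp gave an isolated share of 51.7%, H3K27me3 within 10 kb of 40.2% at a median of 16.5 kb, a grouped share of 3.48% and 4.36% of the list. A limit of 500 bp gave 37.8% at a median of 21.2 kb, a grouped share of 0% and 0.564% of the list. The share with H3K27me3 within 10 kb, 44.3%, was 12.7% within 1 kb and 79.4% within 50 kb. With only the upper 50% of H3K27me3 regions by score it was 24.8% at a median of 38.5 kb, for the same 2483 narrow regions. Narrow regions chosen again with only those H3K27me3 regions numbered 2833. Their satellite share was 16.5% and they were 13.4% of the list. With only H3K27me3 regions of 1000 bp or more the share of the 2483 within 10 kb was 20.2% at a median of 55.1 kb. Narrow regions at least 1000 bp from H3K27me3 were 10.3% of the list. The grouped share of 5.84% was 2.98% within 3 kb, 16.7% within 50 kb and 4.13% among isolated regions alone.

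Every value rests on 1 library per mark, so no error between cultures can be given. No paired analysis was possible because there was a single library of each mark. Sequencing depth and the calling threshold are unknown here, and a weak region missed by the caller would lengthen distances and lower group counts.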
